A study of Mus musculus with 16 samples.

Results

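H3K27Me3, the trimethylation of lysine 27 of histone H3, was compared between XX and XY mouse ES cells as 2 lists of enriched regions, 1 per sex, restricted to chromosomes 1 to 19. All regions of the XX list and of the XY list on these 19 autosomes were taken, 18270 and 14977 regions, together 33247 of the 162760 regions that the 6 lists of the series hold over 3 marks and all chromosomes. The comparison was made at the 21418 autosomal protein-coding genes, at which a region lay within 2 kb of a transcription start site (TSS), in the gene body or within 50 kb of a TSS. The study asked whether the sex-biased expression of ES cells has a counterpart in chromatin. Its labels name 2 XX and 2 XY lines for this mark, all derived from C57BL/6 x CAST/EiJ hybrids, at passages 7 to 10, with no treatment named. The passage range in the study's methods ends lower. Per the methods, the lines were grown in serum with LIF on inactivated C57BL/6 embryonic fibroblasts. These feeders were pooled from embryos of both sexes and depleted before the chromatin was cross-linked. The labels number the hybrid generation upwards from sample to sample, so the generation of a line is not clear from them. Each sex has 1 list, without a count or score, so the values are positions and widths alone, and there is no replicate, SD or test between the sexes. Intervals given are exact binomial 95% intervals and cover counting error only, since neighbouring regions and genes are not independent. The read depth behind each list is unknown, and a region in a list does not tell which share of the cells carried the mark.

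H3K27Me3 is written by Polycomb repressive complex 2, whose catalytic subunits are Ezh1 and Ezh2, and is bound by the Cbx proteins of Polycomb repressive complex 1. In ES cells it is known for broad domains over CpG-rich starts of developmental regulators that are silent or barely transcribed in the pluripotent state. It is removed by the demethylases of the Kdm6 family, of which Kdm6b is autosomal.

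Gene starts from each class of the comparison show what the mark covered. The sequences run 5′ to 3′ along the strand of the gene, from 250 bases before the annotated 5′ end, in the reference sequence of NCBIM37 (mm9), with each CG dinucleotide in capitals. A530032D15Rik (chr1:85106379-85106678, minus strand) and Dux (chr10:57688405-57688704, minus strand) lay in the widest XX regions at gene starts that had no XY region within 50 kb. Def6 (chr17:28344473-28344772, plus strand), Tmem82 (chr4:141174499-141174798, minus strand) and Nudt4 (chr10:95026752-95027051, minus strand) were the next such genes in sequence that occurs mostly once in the genome, and were added after the values were seen. Krt4 (chr15:101755117-101755416, minus strand) and Olfr1414 (chr1:94415043-94415342, minus strand) had the widest XY regions without an XX region within 50 kb. Hoxa2 (chr6:52115363-52115662, minus strand) lay in a region present in both lists.
A530032D15Rik: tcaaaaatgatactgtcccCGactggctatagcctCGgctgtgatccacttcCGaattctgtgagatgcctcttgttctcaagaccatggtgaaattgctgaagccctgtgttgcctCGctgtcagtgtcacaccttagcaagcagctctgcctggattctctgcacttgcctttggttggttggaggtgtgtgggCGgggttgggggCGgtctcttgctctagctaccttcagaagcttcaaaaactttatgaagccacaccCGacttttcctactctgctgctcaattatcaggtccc
Dux: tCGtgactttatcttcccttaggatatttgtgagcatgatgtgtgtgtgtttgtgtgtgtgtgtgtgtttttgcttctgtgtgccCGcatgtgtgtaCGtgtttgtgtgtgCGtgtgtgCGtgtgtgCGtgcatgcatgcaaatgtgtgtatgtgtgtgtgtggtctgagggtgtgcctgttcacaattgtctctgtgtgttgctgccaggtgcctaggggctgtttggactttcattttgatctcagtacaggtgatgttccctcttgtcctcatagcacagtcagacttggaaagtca
Krt4: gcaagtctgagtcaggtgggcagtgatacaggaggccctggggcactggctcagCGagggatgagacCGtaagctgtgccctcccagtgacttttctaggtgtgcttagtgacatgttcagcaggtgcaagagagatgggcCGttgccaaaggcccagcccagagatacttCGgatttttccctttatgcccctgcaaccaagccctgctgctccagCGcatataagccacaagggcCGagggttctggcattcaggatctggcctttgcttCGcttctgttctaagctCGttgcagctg
Olfr1414: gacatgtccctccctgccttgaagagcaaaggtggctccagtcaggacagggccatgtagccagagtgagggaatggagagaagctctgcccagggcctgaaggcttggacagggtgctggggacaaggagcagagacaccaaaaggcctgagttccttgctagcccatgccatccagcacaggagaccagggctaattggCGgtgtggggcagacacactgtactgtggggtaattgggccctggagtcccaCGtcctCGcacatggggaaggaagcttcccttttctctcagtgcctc
Def6: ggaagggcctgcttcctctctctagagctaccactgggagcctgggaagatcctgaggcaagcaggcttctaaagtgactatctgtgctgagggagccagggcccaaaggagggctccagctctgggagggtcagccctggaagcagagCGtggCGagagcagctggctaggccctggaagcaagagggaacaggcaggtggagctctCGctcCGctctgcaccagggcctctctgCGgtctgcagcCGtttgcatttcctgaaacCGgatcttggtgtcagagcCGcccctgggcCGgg
Tmem82: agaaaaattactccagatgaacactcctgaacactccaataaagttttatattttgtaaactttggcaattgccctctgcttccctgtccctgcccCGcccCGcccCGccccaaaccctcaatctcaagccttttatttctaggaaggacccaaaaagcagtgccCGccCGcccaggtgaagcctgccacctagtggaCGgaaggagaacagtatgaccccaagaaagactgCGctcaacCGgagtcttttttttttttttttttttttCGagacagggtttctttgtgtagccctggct
Nudt4: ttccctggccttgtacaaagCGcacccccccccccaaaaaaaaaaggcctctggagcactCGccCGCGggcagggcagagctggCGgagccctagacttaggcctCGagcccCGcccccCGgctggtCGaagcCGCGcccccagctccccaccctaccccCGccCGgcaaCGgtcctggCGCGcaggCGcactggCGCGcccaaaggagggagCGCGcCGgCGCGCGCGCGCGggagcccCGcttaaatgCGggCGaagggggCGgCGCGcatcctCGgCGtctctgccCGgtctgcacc
Hoxa2: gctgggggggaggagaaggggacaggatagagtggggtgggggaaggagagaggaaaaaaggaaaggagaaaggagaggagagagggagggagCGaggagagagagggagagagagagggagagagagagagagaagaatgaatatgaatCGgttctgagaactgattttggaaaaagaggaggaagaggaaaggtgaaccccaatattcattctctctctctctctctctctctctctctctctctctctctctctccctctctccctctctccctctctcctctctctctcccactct

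The counts of CG in these 300 bases ran from 2 at Hoxa2 and 3 at Olfr1414 to 37 at Nudt4, with 7 at A530032D15Rik, 6 at Dux, 8 at Krt4 and 9 at both Def6 and Tmem82. The highest count was thus at an XX-only start and the lowest at a shared one, which need not hold for the classes as a whole. Over all genes with a region within 2 kb of a TSS in both lists, the median was 17 CG in the same window, and 99.2% of these windows held at least 1 CG. The medians were 14 for genes in the XX list only and 15 for genes in the XY list only, against 8 for genes in neither list and 12 for all 21418 genes, of which 95.1% held at least 1. Windows with 10 or more CG made up 69.3% of genes in both lists, 61.6% of XX-only and 62.6% of XY-only genes, and 47.2% of genes in neither list. The CG dinucleotide reads the same on both strands, and its count is a description of the window.

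Most gene starts with H3K27Me3 carried it in both sexes, and in the whole lists those with the mark in a single list were more often in the XX list, a direction that turned when the lists were matched by bases covered (903 XX only and 1450 XY only). The shared genes included all 39 Hox genes and 96 of 97 other homeobox and Pax genes, the patterning factors of the embryo. A region lay within 2 kb of a TSS at 7259 genes in the XX list, 33.9% of all (95% interval 33.3 to 34.5%), and at 6380 genes in the XY list, 29.8% (29.2 to 30.4%). Both lists marked 5680 genes, 26.5% of the genes tested. The XX list alone marked 1579, 7.37%, the XY list alone 700, 3.27%, and neither marked 13459. The ratio of XX-only to XY-only genes was 2.26 (2.06 to 2.47). Of the 5680 genes in both lists, 99.1% had at least 1 pair of start regions that overlapped each other. Such an overlap was nearly given, since both regions lay within 2 kb of a TSS of the gene. Their median widths were 8599 bp in the XX and 7399 bp in the XY list. The overlap therefore does not tell how far the marked stretches coincide.

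Along the gene, both lists were highest beside the 5′ end and fell off on either side. At 1 kb upstream of the 5′ end a region covered 25.3% of genes in the XX list and 22.0% in the XY list. The shares were 23.9% and 20.1% at the 5′ end itself, 10.6% and 7.83% at 20 kb upstream, and 9.64% and 7.19% at 20 kb downstream. The XX share was the higher one at each of these positions, and the curves had the same shape.

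**Figure D1:**
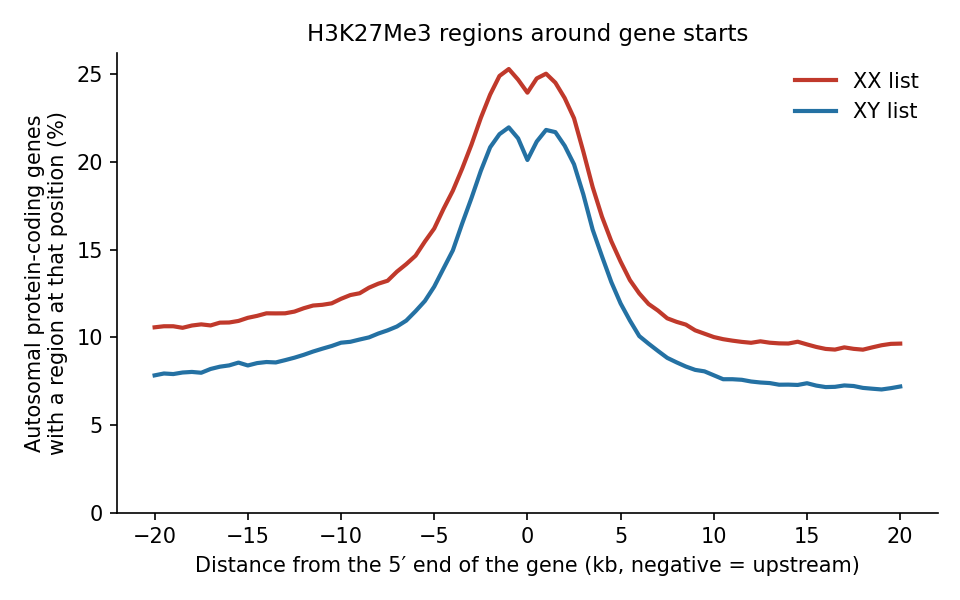
Share of the 21418 autosomal protein-coding genes (vertical axis, %) with an H3K27Me3 region at each distance from the 5′ end of the gene (horizontal axis, kb, negative values upstream), for the XX list (red) and the XY list (blue). Both curves peak within 1 kb of the 5′ end, with 25.3% of genes in the XX and 22.0% in the XY list at 1 kb upstream, and the XX curve stays above the XY curve out to 20 kb.

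In the gene body, 5751 genes (26.9%) held a region of both lists, 1599 (7.47%) of the XX list only and 637 (2.97%) of the XY list only, a ratio of 2.51 (2.29 to 2.76). Within 50 kb of a TSS the counts were 12742 (59.5%) in both, 2001 (9.34%) XX only and 795 (3.71%) XY only, a ratio of 2.52 (2.32 to 2.74). How much of a gene was covered differed as well. The XX regions spread over at least 90% of the body of 1500 genes and the XY regions over that of 1177, and 1033 of these genes were the same. Of the genes so covered in the XX list, 167 had no XY region in the body, and 38 of those so covered in the XY list had no XX region there. Among the 5751 genes with a body region in both lists, the median share of the body covered was 27.1% in the XX and 21.9% in the XY list.

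The lists differ in length, so the comparison was repeated with the 14977 widest XX regions against all 14977 XY regions. This left out XX regions narrower than 2199 bp, while the XY list kept regions down to 399 bp. Within 2 kb of a TSS, 5554 genes (25.9%) were then in both lists, 1386 (6.47%) XX only and 826 (3.86%) XY only, and the ratio fell to 1.68 (1.54 to 1.83). No gene could change from the XX list only to the XY list only, since the XY list was kept whole. Of the 1579 XX-only genes, 1386 stayed so and 193 lost their region, and 126 genes of both lists became XY only. For the gene body the counts were 5576 (26%), 1360 (6.35%) and 812 (3.79%), a ratio of 1.67 (1.53 to 1.83), and within 50 kb they were 12252 (57.2%), 1541 (7.19%) and 1285 (6%), a ratio of 1.20 (1.11 to 1.29). In each window the ratio was thus lower at equal numbers than for the whole lists, and at equal numbers it was lowest in the 50 kb window.

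**Figure D2:**
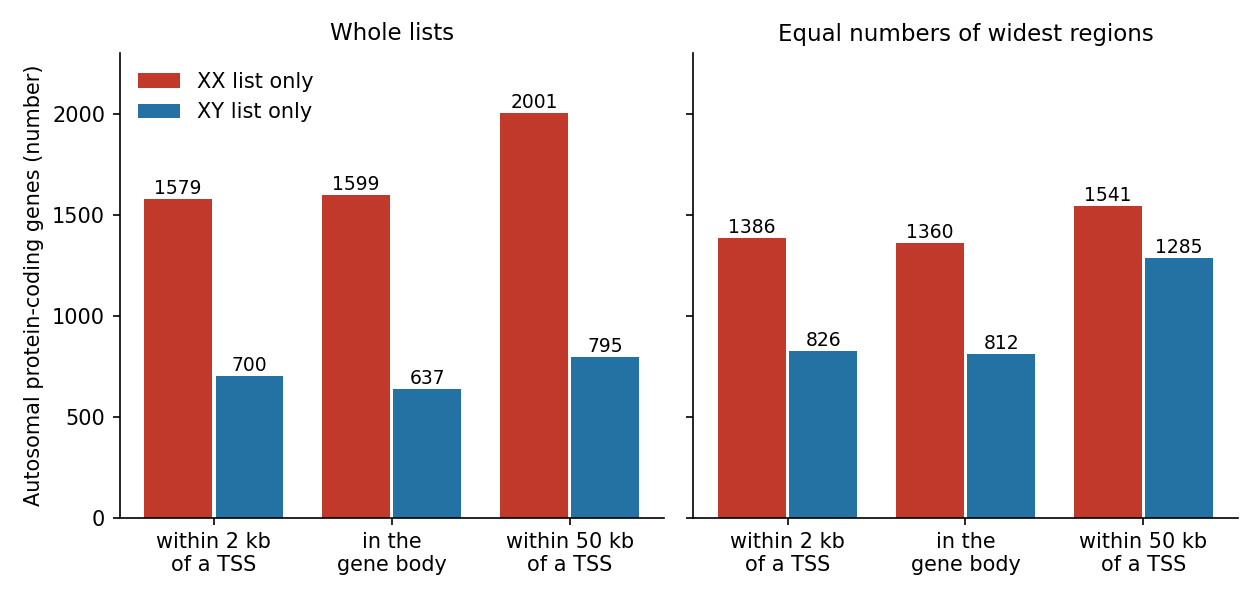
Number of autosomal protein-coding genes (vertical axis) with an H3K27Me3 region in the XX list only (red) or the XY list only (blue) in each of 3 windows, for the whole lists (left) and for equal numbers of widest regions (right). XX-only genes outnumber XY-only genes in each pair of bars, 1579 to 700 at gene starts for the whole lists and 1386 to 826 at equal numbers, and the pair at 50 kb comes closest, with 1541 and 1285.

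Taking only the widest regions of both lists kept the ratio above 1. The widest 2000 of each list gave 686 XX-only and 531 XY-only gene starts, a ratio of 1.29 (1.15 to 1.45), the widest 5000 gave 1001 and 812, a ratio of 1.23 (1.12 to 1.35), and the widest 10000 gave 1224 and 845, a ratio of 1.45 (1.33 to 1.58). XX regions of a given rank were wider than XY regions, the narrowest of the widest 5000 being 6799 bp in the XX and 5999 bp in the XY list. The direction turned when the lists were matched by bases covered. With the 9637 widest XX regions, which cover as many bases as the whole XY list, 903 gene starts were XX only and 1450 XY only, a ratio of 0.623, and XX regions under 3999 bp were no longer in the comparison while XY regions of that width were. Which list holds more genes of its own thus depended on how the lists were matched, and the read depth and threshold behind each list are unknown.

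**Figure D3:**
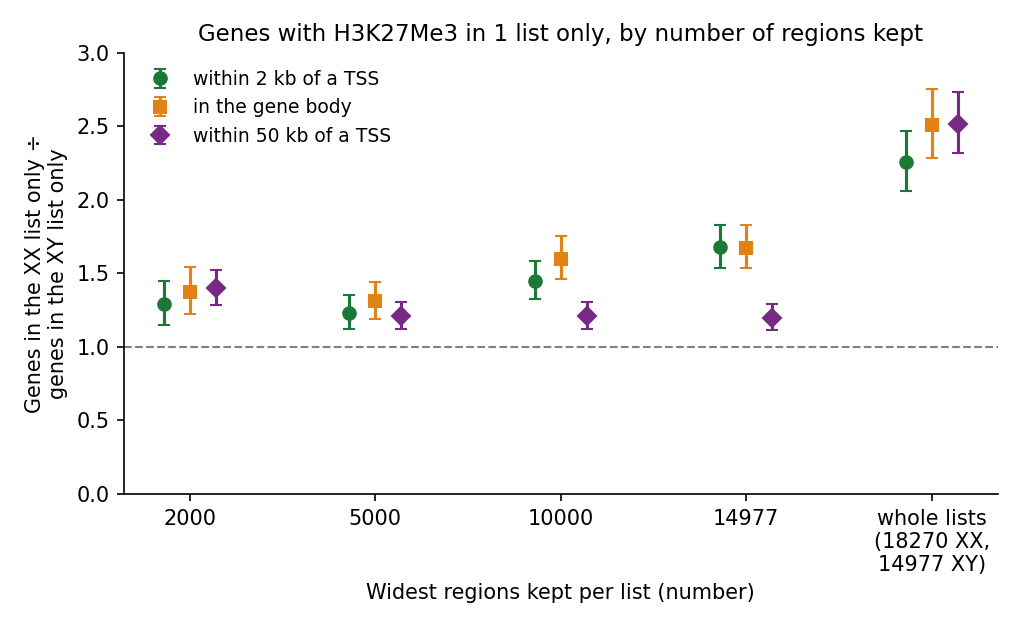
Ratio of genes in the XX list only to genes in the XY list only (vertical axis) for the 2000, 5000, 10000 and 14977 widest regions of each list and for the whole lists (horizontal axis), within 2 kb of a TSS (green circles), in the gene body (orange squares) and within 50 kb of a TSS (purple diamonds), with 95% intervals for counting error. All points lie above the dashed line at 1, from 1.20 to 1.68 at 14977 regions each and from 2.26 to 2.52 for the whole lists.

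A gene marked in a single list often had a region of the other list close by. The widest start region itself overlapped a region of the other list at 265 XX-only genes (16.8%) and 119 XY-only genes (17%). Of the 1579 XX-only starts, 216 had an XY region in the gene body, 928 had one elsewhere within 50 kb, and 435, 27.5% of them, had none. Of the 700 XY-only starts, 132 had an XX region in the body, 372 elsewhere within 50 kb, and 196, 28%, none. The shares without a neighbour in the other list were alike for the 2 directions. These genes make up 2.03% and 0.915% of all genes. H13, a signal peptide peptidase gene with an imprinted transcript, and Sall4, a pluripotency factor, show the edge of the window, since their XY regions lay 1.997 kb and 1.957 kb from a TSS and were counted, and the XX region nearest to Sall4 lay at 2.357 kb and was not.

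In the whole lists, regions themselves were shared more often from the XY side. An XX region overlapped an XY region by at least 1 bp in 11054 of 18270 cases, 60.5% (59.8 to 61.2%), and an XY region overlapped an XX region in 11466 of 14977, 76.6% (75.9 to 77.2%). At equal numbers the shares were 65.9% and 69.8%. At equal bases covered, which shortened the XX list alone, the order turned, with 77% of XX and 55.6% of XY regions shared. The lists covered 110 Mb and 88.4 Mb, and of the 200 bp bins in either list 49.4% were in both, 33.4% in the XX list only and 17.3% in the XY list only. Among the 8439 pairs in which 1 region overlapped 1 region and no other, 55.2% were wider in the XX list and 39.9% in the XY list, with a median width ratio of 1.07 and quartiles of 0.833 and 1.45, and both covered a median of 66.6% of the joint stretch. In these pairs the typical region was therefore of similar width in the lists, with differences in both directions. The pairs leave out 1170 XX regions that overlapped 2 or more XY regions and 881 XY regions that overlapped 2 or more XX regions.

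Width went with sharing. A wider region has more bases at which an overlap of 1 bp can fall, so some rise with width was built into the measure. The median width was 4199 bp in the XX and 4399 bp in the XY list, and it was 5599 and 4999 bp for shared regions against 2999 bp for both XX-only and XY-only regions. Of XX regions under 2 kb 35.6% were shared, and the share rose to 45.7% at 2 to 4 kb, 67.5% at 4 to 8 kb, 90.3% at 8 to 16 kb and 97.6% at 16 kb or more. The shares of XY regions were 57.1%, 66.3%, 82.7%, 97.3% and 99.4% in the same classes. In each class the XY share was the higher one. Only 22 of the 918 XX regions of at least 16 kb and 4 of the 662 such XY regions were in a single list.

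**Figure D4:**
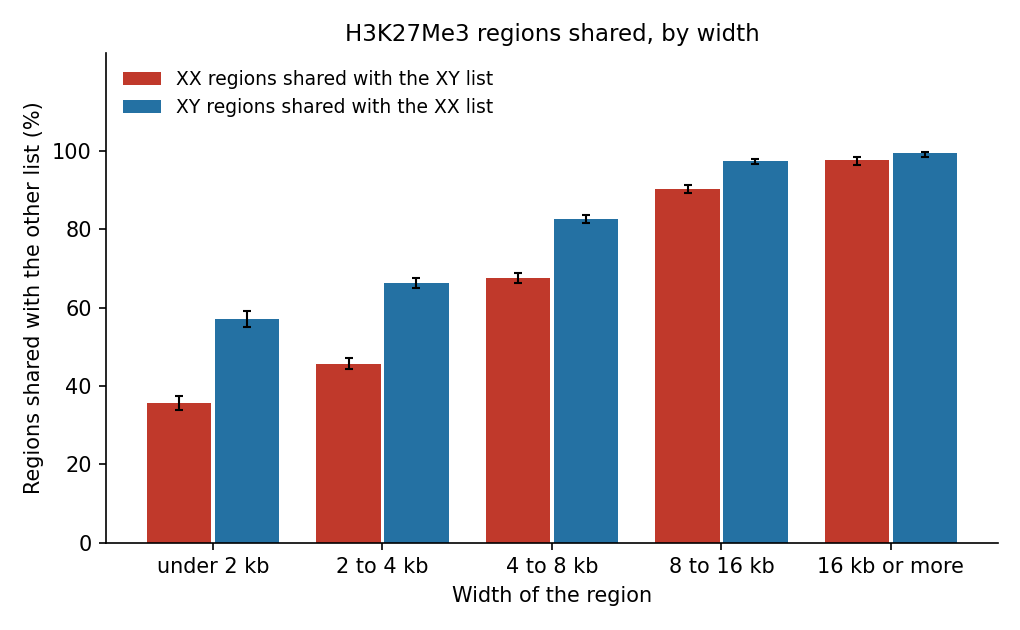
Share of H3K27Me3 regions that overlap a region of the other list (vertical axis, %) by width of the region (horizontal axis), for XX regions (red) and XY regions (blue), with 95% intervals for counting error. The share rises from 35.6% and 57.1% under 2 kb to 97.6% and 99.4% at 16 kb or more. The lists are whole, and 1 bp of overlap counted as shared, so wider regions had more room for an overlap.

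Position went with sharing as well. XX regions that held a TSS were shared in 83.4% of 5426 cases, those within 2 kb of a TSS in 58.0%, those in a gene body in 47.3%, those between genes within 50 kb of a TSS in 52.0% and those farther away in 48.1%. For XY regions the shares were 92.0%, 78.7%, 67.6%, 70.5% and 61.8%. The positions were compared in the whole lists only. Regions that held a TSS were also the widest, with a median of 7599 bp in the XX and 7399 bp in the XY list against 2999 to 3599 bp for the other positions. Of the shared XX regions 40.9% held a TSS, compared with 12.5% of the XX-only regions, and of the XY regions 37.1% and 10.5%. The sequence of shared regions held a median of 15.8 CG per kb in the XX and 15.6 in the XY list, that of XX-only regions 12.3 and that of XY-only regions 11.1. At like width these contrasts were smaller in narrow regions. XX regions under 2 kb held 10.6 CG per kb when shared and 10.0 when XX only, and those of 4 to 8 kb 16.3 and 14.0. For XY regions the values were 11.3 and 10.0, and 16.3 and 12.4. Under 2 kb, a TSS lay in 2.66% of shared and 3.61% of XX-only regions (XY list 5.06% and 2.52%). At 4 to 8 kb the XX shares were 42.6% and 22.9%. Single-list regions were often near one another's list, since 72.0% of XX-only and 74.4% of XY-only regions had a region of the other list within 50 kb, at a median gap of 19.6 kb and 16 kb.

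Promoter CpG content separated marked from unmarked genes more than it separated the sexes. In the 1000 bases around the 5′ end, genes in both lists held a median of 55 CG, XX-only genes 45, XY-only genes 50 and genes in neither list 27. Among marked genes, the share in both lists rose from 56.0% (51.2 to 60.8%) for promoters with fewer than 10 CG to 75.4% (74.1 to 76.7%) for those with 50 or more. The ratio of XX-only to XY-only genes lay between 1.70 and 3.29 over the 6 classes of CG count for the whole lists, and between 1.27 and 2.46 at equal numbers, and the classes were not computed at equal bases covered.

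H3K27Ac at these starts differed between shared and single-list genes, and its shares at XX-only and XY-only genes were close. This mark of active promoters and enhancers lay within 2 kb of a TSS at 41.7% of genes with H3K27Me3 in both lists in the XX and at 42.4% in the XY cells. The shares were 62.0% and 62.2% at XX-only genes and 61.0% and 60.6% at XY-only genes, against 51.4% of all genes in both sexes. H3K27Ac in the XX list alone lay at 4.71% of XY-only genes and H3K27Ac in the XY list alone at 4.29%. The corresponding shares were 3.74% and 3.93% at XX-only genes, 5.33% and 6.11% at genes in both lists, and 2.82% in each direction over all genes.

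On each of the 19 autosomes the XX list was the longer one, with 1.13 to 1.36 times as many regions, and XX-only gene starts outnumbered XY-only ones on all 19, by 1.31 times on chromosome 13 to 3.93 times on chromosome 4. At equal numbers this held on 18, and chromosome 13 gave 0.818, with 27 XX-only and 33 XY-only genes. The chromosomes were not computed at equal bases covered, where the direction over all autosomes turned.

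Hox clusters lay in some of the widest regions of both lists, 3 of the 5 widest XX and 4 of the 5 widest XY regions. Hox genes encode the homeobox factors that pattern the body axis, and all 39 listed members were in both lists. One XX region of 142 kb and one XY region of 141 kb covered the Hoxa cluster on chromosome 6. The Hoxc cluster on chromosome 15 lay in regions of 141 kb (XX) and 145 kb (XY), and Hoxb1 to Hoxb9 on chromosome 11 in 139 kb and 144 kb. The Hoxd cluster with Evx2 lay in 124 kb in the XY list, while the XX list had 113 kb over Evx2 to Hoxd4 and a separate region of 7.2 kb at Hoxd1. Lmx1b, a homeobox factor of limb and kidney development, lay in an XY region of 103 kb and an XX region of 62.8 kb. The XX list had a 115 kb region over the imprinted genes Cdkn1c, Slc22a18 and Phlda2 on chromosome 7, which the XY list covered with 2 regions of 55.6 and 38.0 kb.

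The widest XX region of all was in the XX list only and lay in repeated sequence. It spanned 152 kb of chromosome 6, chr6:114437001-114588599, from 3.71 kb beyond Hrh1 to 4.55 kb before Atg7, and no protein-coding gene started in it. No XY H3K27Me3 region overlapped it. Of its 50-base words, read every 25 bases, 99.5% occurred more than once in NCBIM37, with a median of 68 occurrences, whereas 0.742 to 2.50% of the words of the other 9 regions among the 5 widest of each list were repeated. The XX H3K4Me1 list had 6 regions in this stretch, over 45.0 kb, and the XY H3K4Me1 list none, and H3K27Ac had none in either. Reads from repeated sequence cannot be placed at 1 copy, and how the aligner's choice or copy number bears on this region was not tested.

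Repeated sequence also held the widest XX-only gene starts. A530032D15Rik, annotated under 2 gene IDs, lay in an XX region of 75 kb with 78.5% repeated words, Gm13145 in 30.4 kb with 65.4% and Gm8126 in 21.8 kb with 79.3%. Dux, the homeobox gene that drives the cleavage-stage programme, shared an XX region of 34.8 kb with 4933403O03Rik, Gm10807 and Gm4981, in which 31.2% of words were repeated, and the nearest XY region was 331 kb from Dux. Values of these multicopy genes are uncertain, because reads could be split among their copies. Repeated regions, with at least 50% repeated words, made up 2.15% of XX-only regions (1.83 to 2.51%), 0.805% of shared XX regions, 1.31% of XY-only regions (0.961 to 1.74%) and 0.820% of shared XY regions. They held the start region of 26 of the 435 XX-only genes without a nearby XY region and of 7 of the 196 XY-only genes without a nearby XX region. Without the 244 XX and 140 XY repeated regions the ratio of XX-only to XY-only gene starts was 2.20.

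Among XX-only starts without an XY region within 50 kb, those in mostly single-copy sequence came next in width. Def6, a guanine nucleotide exchange factor of lymphocytes, lay in an XX region of 14.0 kb that covered 71.4% of its body, and the nearest XY region was 56.9 kb away. Fblim1, a filamin-binding adaptor, and Tmem82, a transmembrane protein, shared an XX region of 13 kb, with the nearest XY region at 52.4 kb and 50.1 kb. Nudt4, a diphosphoinositol polyphosphate phosphohydrolase, lay in an XX region of 12.4 kb, and the nearest XY region was 105 kb away. Repeated words made up 4.30 to 5.26% of these 3 regions.

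The widest XY-only starts without a nearby XX region were narrower, and their sequence was single copy. Krt4, a keratin of stratified epithelia, lay in an XY region of 11.6 kb, with the nearest XX region 50.03 kb from a TSS, just outside the window. Olfr1414, an olfactory receptor, lay in 8.8 kb and Ncam1, the neural cell adhesion molecule, in 8.4 kb, with XX regions 182 kb and 151 kb away. Rgs7bp, which anchors regulators of G protein signalling, lay in 8.4 kb and Thrb, thyroid hormone receptor beta, in 8.2 kb, with XX regions 187 kb and 328 kb away. Tmem90b and C530025M09Rik started in the same XY region of 8.2 kb, and 4930597O21Rik in one of 7.8 kb. Between 0 and 2.1% of the words of these regions were repeated. Of these 8 genes, Ncam1 and 4930597O21Rik also had H3K27Ac at the start in both sexes, Tmem90b and C530025M09Rik had it in the XX list only, and the other genes in neither.

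Developmental transcription factors, the classical Polycomb targets, were mostly marked in both sexes. Beside the Hox genes and all but 1 of the 97 other homeobox and Pax genes, both lists marked 41 of 44 neural factors, 33 of 35 cardiac factors, 26 of 27 blood factors and 25 of 33 gastrulation and endoderm factors, against 26.5% of all genes. Six4, a homeobox factor of muscle and sensory organ development, was the homeobox exception, with an XX region of 3.0 kb at its start. Among neural factors, Zic5 had an XY region of 9.4 kb and an XX region 2.3 kb from a TSS, and St18 and Neurod4 were in neither list. The blood exception was Cebpe, a granulocyte factor, with an XY region of 7.2 kb. Smyd1, a muscle methyltransferase, and Foxh1, a Nodal pathway factor, were the cardiac factors in neither list. XX-only genes made up 0 to 3.03% of each of these lists, beside 7.37% of all genes, and XY-only genes 0 to 6.06%, beside 3.27%. The highest XY-only shares rest on very few genes. They are 3.70% of blood factors, from 1 gene, and 6.06% of gastrulation and endoderm factors, from 2 genes. Those 2, Lefty1 and Lefty2, lie near each other on chromosome 1 and encode secreted inhibitors, not transcription factors.

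Among the gastrulation factors the single-list genes included inhibitors of the Nodal pathway. Lefty1 and Lefty2, secreted inhibitors of Nodal, had XY regions of 10.0 kb and 7.6 kb at their starts, and the nearest XX regions lay 2.2 kb and 18.2 kb from a TSS. Nodal itself was in neither list, together with Cer1, Tbx6, Msgn1 and Foxh1. Of 56 BMP, TGF-beta and FGF ligands, 40 were in both lists, 3 were XY only (Lefty1, Lefty2 and Fgf4) and 1, Gdf15, a stress-induced ligand, was XX only with a region of 12.4 kb and an XY region 2.99 kb from a TSS. These are 5.36% XY only and 1.79% XX only, beside 3.27% and 7.37% of all genes. Fgf4, the FGF that ES cells themselves secrete, had an XY region of 6.0 kb, and the nearest XX region was 16.7 kb from a TSS. Wnt ligands and receptors were in both lists for 43 of 46 genes. Dkk4, a secreted Wnt inhibitor, was XX only through a region of 0.999 kb that was not among the widest 14977, and Fzd5 and Lgr4 were in neither list.

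Genes of the neuronal surface were also mostly in both lists. Of 61 axon guidance genes 48 were in both lists, 4 XX only (6.56%) and 3 XY only (4.92%), beside 7.37% and 3.27% of all genes. Ephb6, an Eph receptor, and Robo1, a Slit receptor, had XX regions of 4.2 kb each, Sema3e, a secreted semaphorin, one of 3.6 kb and Efnb3, an ephrin, one of 3.4 kb. Plxnb2, a plexin, had an XY region of 5.8 kb, Sema5a one of 2.8 kb and Sema4d one of 2.2 kb. Of 45 glutamate and GABA receptor genes 31 were in both lists, 5 XX only (11.1%) and 2 XY only (4.44%), and at equal bases covered the counts were 2 and 2. Grik5, a kainate receptor subunit, had an XX region of 7.6 kb, Gria4, an AMPA receptor subunit, one of 5.4 kb, Gabbr1, a GABA-B receptor subunit, one of 3.2 kb and Gabrb2, a GABA-A receptor subunit, one of 3.0 kb. Gabrb1, another GABA-A subunit, had an XY region of 3.4 kb and Gabrr3 one of 2.4 kb. Gria4 was the most isolated, with the nearest XY region 2825 kb away. Of 82 potassium channel genes 57 were in both lists, 3 XX only (3.66%) and 1 XY only (1.22%), both below the shares of all genes, namely Kcnab2 (7.6 kb), Kcnab1 (4.6 kb) and Kcnk18 (3.4 kb) against Kcnn2 (2.0 kb). These regions were narrower than the medians at shared starts of the same lists, 11.4 kb for axon guidance, 8.0 kb for receptors and 10.2 kb for potassium channels in the XX list.

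Clustered protocadherins, adhesion molecules that give neurons their identity, were in both lists for 23 of 24 genes, with median start regions of 13 kb in the XX and 6.0 kb in the XY list, and Pcdhb9 was XX only in a region of 4.2 kb. Receptors of smell and pheromones lay at the other end. Of 1106 olfactory receptor genes 8 were in both lists, 9 XX only and 7 XY only (5 and 8 at equal numbers), and of 327 vomeronasal receptor genes 2 were XX only, Vmn1r87 and Vmn1r90, each through a region of 2.2 kb. The XX-only and XY-only shares were 0.814% and 0.633% of olfactory receptor genes, beside 7.37% and 3.27% of all genes. XX-only vomeronasal receptor genes made up 0.612%. Promoters of the olfactory and vomeronasal receptor genes held a median of 5 and 3 CG per 1000 bases, against 42 for all genes.

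**Figure D5:**
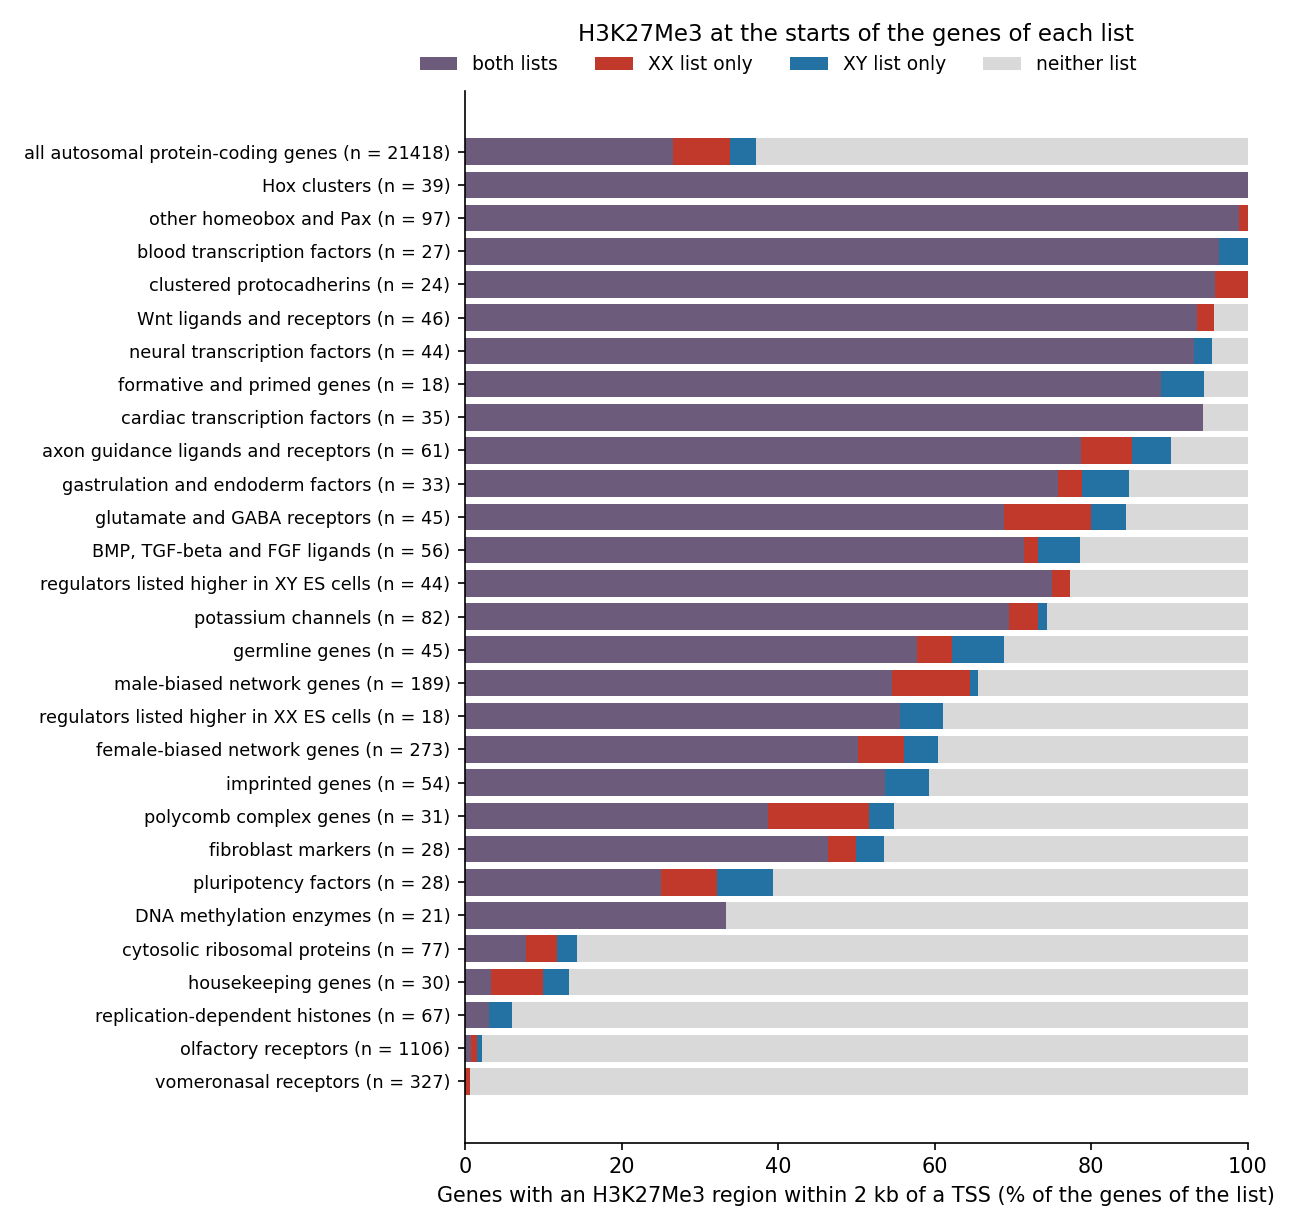
Share of the genes of each list (horizontal axis, %) with an H3K27Me3 region within 2 kb of a TSS in both lists (purple), in the XX list only (red), in the XY list only (blue) or in neither list (grey), with the number of genes in brackets and all autosomal protein-coding genes in the top row. Hox, other homeobox and Pax, blood, neural and cardiac factors are marked in both lists for 93.2 to 100% of their genes, and olfactory and vomeronasal receptors, histones and housekeeping genes for 0 to 3.33%.

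The ES cell identity of both lists was checked at marker genes. All 7 ES cell markers found of 8 listed had H3K27Ac at the start in both sexes. Pou5f1, Nanog, Sox2, Zfp42 and Dppa5a, 5 of the 7, had no H3K27Me3 there in either list, while Esrrb and Klf4 had it in both. Of 28 pluripotency factors 7 were in both lists, namely Prdm14, Nr5a2, Klf4, Lin28a, Tbx3, Lin28b and Esrrb, 2 XX only, 2 XY only and 17 in neither. Tbx3, a T-box factor, lay in 45.4 kb in each list. Nr5a2, an orphan nuclear receptor, lay in 8.0 kb (XX) and 12.6 kb (XY) and Esrrb, another one, in 24.2 kb and 18.4 kb. Dppa3, a maternal factor that guards DNA methylation, had an XX region of 11.8 kb 1.23 kb from a TSS and an XY region 2.23 kb from a TSS. Lifr, the receptor of LIF, had an XX region of 3.2 kb 1.36 kb from a TSS, with the nearest XY region at 64.6 kb. Fgf4 and Sall4, with a region of 4.8 kb, were XY only. Shares of 7.14% in each direction stood beside 7.37% and 3.27% of all genes. Of 18 formative and primed genes 16 were in both lists, Zic5 was XY only and Dnmt3l in neither.

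Fibroblast genes were checked because the lines were grown on feeder cells. Of 10 fibroblast markers 7 had the mark at the start in both lists, Lum had a narrow XX region of 2.0 kb, and Col1a2 and Col3a1 were in neither list. H3K27Ac was listed at 1 of the 10 in XX cells and at 2 in XY cells, and H3K4Me1, a mark of enhancers, at 5 and 6. In the longer list of 28 fibroblast genes 13 were in both lists, 1, Lum, was XX only, and 1, Vim, an intermediate filament gene, XY only through a region of 2.0 kb. These single-list shares were 3.57% in each direction, beside 7.37% XX only and 3.27% XY only over all genes. The part of feeder cells in the lists was not tested.

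Some Polycomb genes were themselves marked, and few of them in a single list. Of 31 genes of the complexes, their readers and the Kdm6 demethylases, 12 were in both lists, 4 XX only (12.9%, beside 7.37% of all genes), 1 XY only (3.23%, beside 3.27%) and 14 in neither, Ezh2, Eed and Suz12 among the latter. Cbx2 and Cbx8, which bind H3K27Me3, lie side by side and were marked in both lists, by regions of 13.6 and 73.4 kb in the XX and of 6.2 and 38.2 kb in the XY list. Bmi1 lay in 37.4 kb in the XX and 25.8 kb in the XY list. The XX-only genes were Rybp, a subunit of variant complexes (9.6 kb), Kdm6b (5.8 kb), Ezh1 (4.4 kb) and Cbx6 (1.2 kb, not among the widest 14977). Cbx7, the main Cbx protein of ES cells, was XY only through a region of 2.0 kb at 1.65 kb from a TSS. At equal numbers the counts were 11 in both lists, 3 XX only and 2 XY only, beside 25.9%, 6.47% and 3.86% of all genes.

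Within 2 kb of a TSS, DNA methylation enzymes showed no single-list member among 21 genes. In the gene body 1 was XX only, and within 50 kb 6 were XX only and none XY only. Over all genes the XX-only and XY-only shares were 7.37% and 3.27% within 2 kb and 7.47% and 2.97% in the body. Within 50 kb they were 9.34% and 3.71%. Dnmt3a and Dnmt3b, the de novo methyltransferases, were in both lists, by regions of 10.8 and 21.2 kb in the XX and of 6.6 and 22.4 kb in the XY list, as were Tet3, Gadd45b, Gadd45g and Uhrf2. Dnmt1, Tet1, Tet2, Uhrf1 and Dnmt3l were in neither list.

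Of 54 imprinted genes 29 were in both lists, none XX only and 3 XY only (5.56%), beside 7.37% XX only and 3.27% XY only over all genes. Ndn had an XY region of 5.2 kb over its start, with the nearest XX region at 26.8 kb from a TSS, H13 one of 7.6 kb and Asb4 one of 4.4 kb. Of 45 germline genes 26 were in both lists, 2 XX only (4.44%) and 3 XY only (6.67%). With the 5′ end alone 5 were XX only, and at equal bases covered 1 was XX only and 12 were XY only. Piwil1 and Piwil2, which bind piRNAs, had XX regions of 4.4 and 3.2 kb, and their relative Piwil4 an XY region of 1.6 kb. Syce1, of the synaptonemal complex, and Rnf17, a Tudor domain protein of germ cells, had XY regions of 4.6 and 4.4 kb.

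Genes active in all cells were mostly unmarked. Of 30 housekeeping genes 26 were in neither list, B2m was in both (5.4 and 6.2 kb), Snrpd1 and Psmb2 were XX only through regions of 2.0 and 1.6 kb, neither among the widest 14977, and Eno1 was XY only (4.0 kb). Of 77 cytosolic ribosomal protein genes 66 were in neither list, 6 in both, 3 XX only (Rpl38 and Rps10 among them) and 2 XY only (Rps27l and Rps19). The XX-only regions lay 0.638 to 1.63 kb from a TSS of these genes and the XY-only regions 0.590 and 0.893 kb, so none reached a start itself. Of 67 replication-dependent histone genes 63 were in neither list, Hist3h2ba and Hist3h2a were in both and Hist1h2be and Hist1h1e were XY only through the same region of 3.6 kb. The XX-only and XY-only shares were 6.67% and 3.33% of housekeeping genes and 3.90% and 2.60% of ribosomal protein genes. XY-only histone genes made up 2.99%. Over all genes the shares were 7.37% XX only and 3.27% XY only.

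The genes and gene lists that the study names for sex-biased expression mostly had the same H3K27Me3 state in both sexes. The lists were drawn from expression in these cell lines and are not independent evidence of a direction. Dnmt3l, a cofactor of DNA methyltransferases, had no region at its start or body in either list, and the nearest regions lay 34.9 kb (XX) and 66.1 kb (XY) from a TSS, so it was XX only in the 50 kb window. Mitf, the factor of pigment cells, had no region within 50 kb in either list, with XX and XY regions at 187 kb and 64.4 kb. Sohlh2, a germ cell factor, resembled Dnmt3l, with an XX region at 44.3 kb and an XY region at 58.3 kb. Hoxb9 lay in the Hoxb domain of both lists. Meis2, a homeobox cofactor of Hox proteins, lay in 18.6 kb (XX) and 23.6 kb (XY), Prdm14, a pluripotency and germ cell regulator, in 10.6 and 13.8 kb, Ferd3l, a basic helix-loop-helix factor, in 5.4 and 5.8 kb, and Pou3f3, a neural POU factor, in 39.6 and 43.0 kb. Lef1, a mediator of Wnt signals, lay in 11 and 12.0 kb, Gata4, a heart and endoderm factor, in 48.8 and 38.6 kb, and Sox11 in 7.8 and 3.8 kb. Zeb1, a repressor of epithelial genes, was XY only, through a region of 2.4 kb with no XX region within 213 kb.

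Of the 18 autosomal regulators listed as higher in XX ES cells, 10 were in both lists, 1, Zeb1, was XY only and 7 were in neither. Of the 44 listed as higher in XY ES cells, 33 were in both, 1, Pbx2, a Hox cofactor, was XX only (3.6 kb) and 10 were in neither. The female-biased network genes comprised 137 in both lists, 16 XX only (5.86%), 12 XY only (4.40%) and 108 in neither, and the male-biased network genes 103, 19 (10.1%), 2 (1.06%) and 65, beside 7.37% XX only and 3.27% XY only over all genes. At equal numbers the XX-only and XY-only counts were 12 and 15 for the female-biased genes and 17 and 3 for the male-biased genes, beside 6.47% and 3.86% of all genes. Female-biased members in the XX list only were led by Ak7, an adenylate kinase (13 kb), Myl9 and Myh11, smooth muscle myosin chains (6.0 and 5.4 kb), and Il34, a cytokine (4.8 kb), and those in the XY list only by Ncam1, Lefty2, Prnp, the prion protein gene (7.4 kb), and Pgm5 (7.4 kb). Male-biased members in the XX list only were led by Fam83h (16.6 kb), Kif21b, a kinesin (12.4 kb), Gpx2, a glutathione peroxidase (12.4 kb), and Actn3, a muscle actinin (11 kb). The XY-only pair was Adamts3, a procollagen protease (4.4 kb), and Pkp2, a desmosomal protein (2.0 kb). Some of these XX-only genes had XY regions just outside the window. XY regions lay 2.13 kb from a TSS of Fam83h and 2.44 kb from one of Actn3, and covered 47.4% and 50.3% of their bodies. Ak7 had XY regions over 12.8% of its body, and Kif21b and Gpx2 had none in the body. The difference between the network lists was not tested, since each sex has 1 list.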

How the data were processed

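Histone H3K27Me3 was measured by ChIP-seq in 2 XX and 2 XY ES lines. Per the methods and the submitters' processing notes, the authors used Bowtie2 for alignment to mm9 and Bedtools for enrichment, and the notes add deepTools. The deposited values are positions alone, 1 list of regions per sex, which start on a grid of 200 bp. Not given in the sources used here were the region caller, the threshold, the control library and how the 2 lines entered a list. The methods name a HiSeq instrument and the labels a Genome Analyzer. A shallower library or stricter threshold gives a shorter list, and reads of the CAST/EiJ genome were aligned to the C57BL/6 reference. The effect of neither was tested.

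Regions on chromosomes 1 to 19 were kept, of which 33245 of 33247 lay inside their chromosome. Gene models were the protein-coding genes of GENCODE M1 on NCBIM37, the assembly of mm9, with every annotated TSS. Shared meant an overlap of at least 1 bp. Counts were computed in Python 3.11.15 with pandas 2.3.3, tested on simulated regions, and checked against Bedtools 2.31.1, with 4 of 4 overlap counts equal. Intervals for shares and ratios came from scipy 1.17.1. Equal numbers kept the widest regions, ties by position. Words of 50 bases were read every 25 bases and counted on both strands of NCBIM37.

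The region lists, members and gene lists were chosen with earlier results of these data known. Genes were named by rule, namely the 8 widest starts per direction without a region of the other list over the body or within 50 kb that kept this state at equal numbers, up to 4 widest single-list members per gene list and direction, the genes in the 5 widest regions of each list, and the genes the study discusses. The 4 genes in single-copy sequence, and members given to fill out a class of a list, were chosen after their values were seen. Some genes and sequences that the rule names are not reported here. Alternatives changed list length, region width, overlap, merging, gene model and distance, and repeated regions were left out as an alternative chosen after seeing the data.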

Additional observations from a re-analysis of the deposited data

How the results depend on the processing

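The ratios moved most with how the lists were matched, and the shares of regions shared moved with that and with the overlap required. At equal bases covered the ratio of XX-only to XY-only genes reversed, to 0.623 within 2 kb of a TSS, 0.654 in the gene body (894 and 1367 genes) and 0.307 within 50 kb (807 and 2631 genes), and the shares of regions shared were 77% of XX and 55.6% of XY regions. This setting shortened the XX list alone. With equal numbers the ratios were 1.68, 1.67 and 1.20 and the shares 65.9% and 69.8%. The widest 50% of each list gave shares of 62.5% and 78.7% and a ratio of 2.50 within 2 kb, and regions of at least 2000 bp a ratio of 2.19 within 50 kb. A reciprocal overlap of 50% left 40.5% and 49.4% shared, allowing a gap of up to 1 kb gave 62.1% and 77.9%, and merging regions across such gaps gave 75.8% of XY regions. The other distances, the 5′ end alone, the TSSs of protein-coding transcripts and leaving out repeated regions, an alternative chosen after seeing the data, kept each ratio within its interval.

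Over the 56 single-list counts of the gene lists, 50 stayed within 1.5 times at equal numbers, 49 with the 5′ end alone and 31 at equal bases. Counts of 0 that stayed 0 were among these. At equal numbers and at equal bases an XX-only count could only stay or fall. Of 172 named genes 167 kept their state at equal numbers, 155 at equal bases and 165 with the 5′ end alone. With the TSSs of protein-coding transcripts 166 did, and with the widest 50% of each list 135. These 5 alternatives only take away regions or TSSs. A gene in one list only therefore could not change to the other list only. No paired analysis was possible because each sex has 1 list that carries no replicate number, and no line could be left out for the same reason. Depth limits are unknown, since the lists hold no counts.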
